A study of Rattus norvegicus with 2 samples.

Results

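The 10 genes described here encode secreted or membrane-bound proteases that cut the extracellular matrix and the inhibitors that hold them in check. They are the aggrecanase-type proteases Adamts1, Adamts4, Adamts5 and Adamts9, the matrix metalloproteases Mmp2 and Mmp14, and the tissue inhibitors of metalloproteases Timp1, Timp2, Timp3 and Timp4. They were taken by symbol from the 32623 genes of the deposited counts, and each symbol matched 1 Ensembl identifier. The counts come from dorsal root ganglia (DRGs) of male Sprague Dawley rats, 8 weeks old at purchase. Bilateral L3-6 ganglia were pooled from 5 rats with diabetic peripheral neuropathy (DPN), which had received streptozotocin (STZ, a toxin of insulin-producing beta cells) as 1 intraperitoneal injection of 65 mg/kg, and from 5 control rats injected with citrate buffer, in both cases 8 weeks after the injection. The ganglia were dissociated with collagenase and trypsin, and 1 library per condition was made with the 10x Genomics 3′ assay, in which each captured mRNA molecule is counted by its unique molecular identifier (UMI). With 1 pooled library per condition there is no replicate and no test. All intervals below are 95% intervals for counting error only, and rats, preparation and library cannot be told apart from the condition.

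Proteases of the ADAMTS family cut proteoglycans of the matrix such as aggrecan, versican and brevican. Mmp14 is a protease anchored in the cell membrane that activates the secreted gelatinase Mmp2, and this activation uses Timp2 as an adaptor. TIMP proteins block the active site of MMPs, and Timp3, which stays bound to the matrix, is also the main TIMP inhibitor of ADAM and ADAMTS proteases. In the DRG, satellite glial cells (SGCs) wrap the cell bodies of sensory neurons, Schwann cells wrap the axons, and fibroblasts and vessels make up the connective tissue around them.

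The promoters of 3 members are printed because the results turn on these genes: Adamts1 had the highest ratios of the set, and Timp1 and Timp3 differed between the conditions in opposite directions. Each stretch is the 250 bases before the start in the promoter table of RefSeq (build GRCr8), 5′ to 3′ on the strand of the gene, which was the minus strand for all 3. The Adamts1 stretch lies at chr11:38427385-38427634, the Timp1 stretch at chrX:3771123-3771372 and the Timp3 stretch at chr7:19459559-19459808. The annotated span of Timp1 reaches beyond the start used in the table. Capitals mark the motif matches described below.
Adamts1: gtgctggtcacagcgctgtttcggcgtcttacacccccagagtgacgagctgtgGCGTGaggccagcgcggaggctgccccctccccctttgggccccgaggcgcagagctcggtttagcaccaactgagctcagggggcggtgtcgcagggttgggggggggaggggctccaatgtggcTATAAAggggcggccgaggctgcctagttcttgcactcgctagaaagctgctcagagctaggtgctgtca
Timp1: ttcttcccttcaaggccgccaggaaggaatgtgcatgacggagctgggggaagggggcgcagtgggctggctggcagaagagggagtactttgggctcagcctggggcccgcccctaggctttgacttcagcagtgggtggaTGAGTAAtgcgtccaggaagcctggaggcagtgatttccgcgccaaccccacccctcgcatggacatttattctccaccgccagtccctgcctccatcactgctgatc
Timp3: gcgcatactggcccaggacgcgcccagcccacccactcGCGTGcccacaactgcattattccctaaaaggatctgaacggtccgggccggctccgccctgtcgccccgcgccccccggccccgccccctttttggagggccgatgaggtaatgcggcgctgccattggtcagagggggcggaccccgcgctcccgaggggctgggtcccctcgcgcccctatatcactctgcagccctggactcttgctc

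The table held 7 of the 10 members (Adamts5, Mmp2 and Mmp14 were not matched). Both strands of these 7 stretches were searched for the AP-1 site TGANTCA, the cAMP response element TGACGTCA, the EGR1 site GCGNGGGCG, the core of the hypoxia response element NCGTG and the TATA box TATAAA, none of which overlapped in a match. Adamts1 holds a TATA box at −70 to −65 before the start, a motif found in 12.9% of the 33469 promoters of the same length, and a GCGTG at −196 to −192. Timp3 holds a GCGTG at −212 to −208, and 54.7% of all promoters hold such a core. A GCGTG also lies at −86 to −82 of Adamts9. The sequence TGAGTAA at −108 to −102 of Timp1, a variant of the AP-1 site, was added to the search after the sequence had been seen, and 2.38% of all promoters hold it. The AP-1 site (6.34% of all promoters), the cAMP response element (1.59%) and the EGR1 site (4.29%) had no match in the 7 stretches, which says only that these letters are not in these windows.

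The DPN library holds 13168 barcodes and 115409375 UMIs, and the control library 11011 barcodes and 121101966 UMIs. After barcodes under 1000 UMIs or with 20% or more mitochondrial (Mt-) UMIs were left out, 11013 DPN and 9798 control cells remained, with medians of 6446 UMIs in DPN and 9928 UMIs in the control. Cells were then assigned by marker genes per 10000 UMIs, and such a gate took 3012 DPN and 4135 control SGCs (Fabp7, Tyrp1), 481 DPN and 347 control myelinating Schwann cells (Prx, Mag, Cldn19), 1213 DPN and 802 control endothelial cells (Cldn5, Flt1, Cdh5), 584 DPN and 385 control smooth muscle cells (Myh11), and 328 DPN and 211 control fibroblasts (Lum). Markers that the gates did not use had their highest sum in their own gate for myelinating Schwann cells, endothelium, smooth muscle and fibroblasts. Of such markers of SGCs, Slc1a3 and Kcnj10 were highest in the SGC gate, whereas Glul was higher in endothelium in both libraries. The gates left 5506 DPN and 3985 control cells unassigned, 106 DPN and 67 control cells passed more than 1 gate, and 38 barcodes occurred in both libraries. Leaving out the shared barcodes changed no count of members given below.

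Levels are UMIs per 1000000 UMIs of the gate (CPM), and ratios are DPN over control. Among genes with at least 100 UMIs in a gate, a gene counted as higher if its ratio was at least 1.5 and as lower if it was at most 1/1.5. In SGCs, 4 of 10 members were higher in DPN (Adamts1, Adamts4, Adamts5 and Mmp2) and 1 was lower (Timp1), while 25.7% of all genes were higher and 2.29% lower. In myelinating Schwann cells, 3 of the 7 members with enough UMIs were higher (Adamts1, Adamts4, Adamts5) and Timp1 was lower, against 18.5% and 5.61% of all genes. In endothelium, 3 of 9 were higher (Adamts1, Adamts5, Adamts9) and Timp4 was lower, against 18.7% and 4.58%. In smooth muscle, 3 of 8 were higher (Adamts1, Adamts4, Timp3) and 0 lower, against 18.4% and 4.01%, and in fibroblasts the same 3 of 8 were higher and 0 lower, against 26.2% and 4.1%. In every gate the share of members above the limit was above that of all genes, by fewer than 2 genes of the set. The median log2 ratio of the members was 0.56 in SGCs, 0.33 in myelinating Schwann cells, 0.13 in endothelium, 0.36 in smooth muscle and 0.19 in fibroblasts. Over all genes it was 0.19, 0.046, 0.059, 0.070 and 0.16 in the same gates. When ratios were taken relative to this median of all genes, only Adamts1 and Adamts5 stayed above the limit in SGCs, and Adamts4 (1.47) and Mmp2 (1.33) did not.

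**Figure D1:**
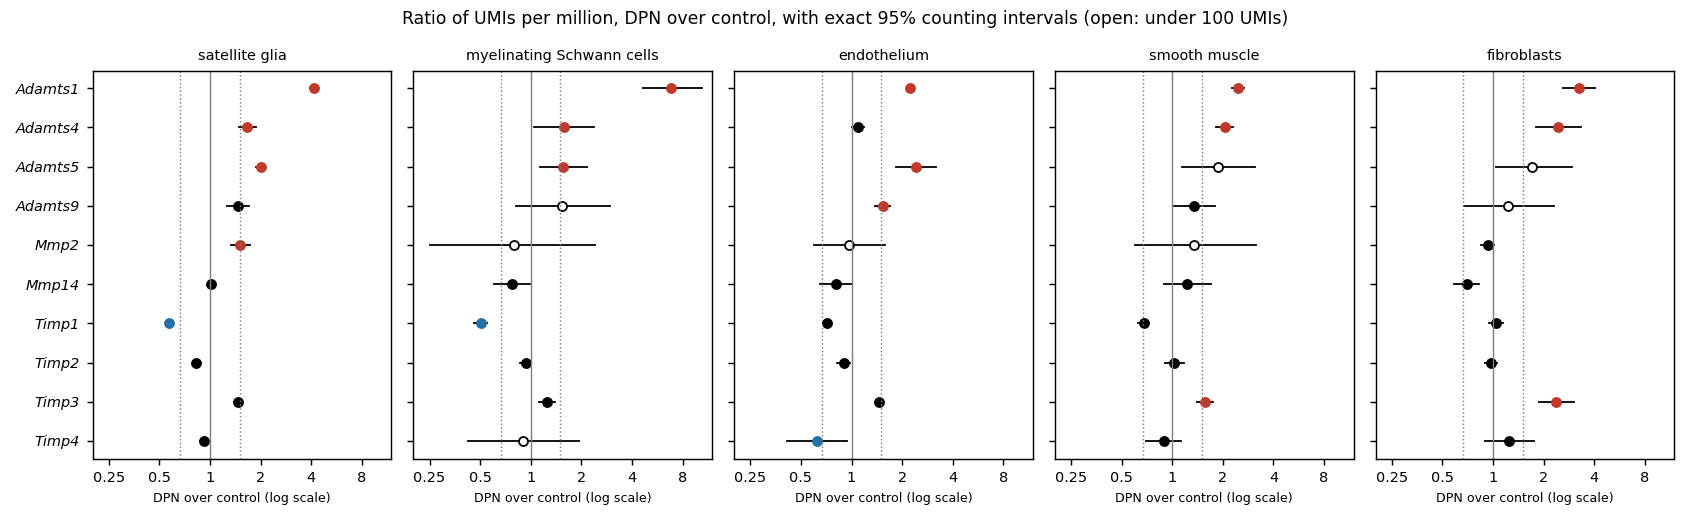
Ratio of CPM, DPN over control (log axis), for the 10 members in each of the 5 gates, with exact 95% counting intervals. Red points were at least 1.5, blue points at most 1/1.5, open points had under 100 UMIs, and dotted lines mark these limits. Adamts1 is the only member with red points in all 5 gates, the points of Adamts5 also lie right of the limit in all 5 but are open in smooth muscle and fibroblasts, and Timp1 is left of 1 in 4 of them.

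Adamts1, a protease of versican and aggrecan that also has antiangiogenic activity, was the member with the highest ratio in 4 gates and was higher in DPN in all 5. In SGCs it had 6345 UMIs or 188 CPM (183 to 193) in DPN and 2641 UMIs or 45.4 CPM (43.7 to 47.2) in the control, a ratio of 4.14 (3.96 to 4.33). It ranked 37 of 10753 genes in this gate. In fibroblasts the level was 214 CPM in DPN and 66.1 CPM in the control, a ratio of 3.24 (2.61 to 4.06). Vessels carried more of this transcript than the glia in both conditions. Smooth muscle had 794 CPM in DPN and 324 CPM in the control, a ratio of 2.45 (2.25 to 2.66), and endothelium had 564 CPM in DPN and 254 CPM in the control, a ratio of 2.22 (2.13 to 2.32). In endothelium Adamts5 had the higher ratio, with an interval that overlapped that of Adamts1.

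Myelinating Schwann cells gave the highest ratio of Adamts1 and the least certain one. They held 200 Adamts1 UMIs (86.6 CPM) in DPN and 30 (12.7 CPM) in the control, a ratio of 6.83 (4.64 to 10.4). It was 3.89 in cells of exactly 1 gate, 4.23 without the deepest 5% of cells, 4.28 as a mean over cells and 3.61 with doubled gate thresholds. In the gate's cells of 15000 or more UMIs, 12 in DPN and 37 in the control, it reached 32.8, and it was 2.11 in cells under 5000 UMIs. Endothelial markers in this gate summed to 129 CPM in DPN and 75.7 CPM in the control, and blood markers to 512 CPM in DPN and 6.34 CPM in the control. The SGC markers Fabp7 and Tyrp1 reached 7.15% of their SGC level in this gate in DPN and 14.1% in the control. Adamts1 was 6.44 times in DPN and 1.99 times in the control what that share of its SGC level would give. The same figure was 3.18 in DPN and 3.19 in control cells of the macrophages described below. The part of these other transcripts in the result was not tested. In the other 4 gates the ratio of Adamts1 lay between 2.13 and 4.47 in all 13 alternative ways of choosing, weighting and scaling the cells.

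The share of cells with a transcript showed the same order of the conditions when every cell was thinned to 1000 UMIs, which removes the difference in depth. An Adamts1 UMI was found in 15.8% of DPN SGCs (14.5% to 17.2%) and in 4.04% of control SGCs (3.46% to 4.68%). Without thinning the shares were 62.1% in DPN and 35.3% in the control, at medians of 11145 UMIs in DPN SGCs and 13783 UMIs in control SGCs. In endothelium 34.4% of DPN cells and 16.1% of control cells had a UMI after thinning. In smooth muscle the shares were 44.9% in DPN and 25.2% in the control, and in fibroblasts 17.7% in DPN and 8.53% in the control. In myelinating Schwann cells they were 6.24% in DPN (4.25% to 8.78%) and 1.15% in the control (0.315% to 2.93%). Macrophages were used as a comparison cell type. They may express ADAMTS proteases themselves, so their share is not a clean measure of free RNA. Selected by C1qa, C1qb, C1qc, Csf1r, Cd68 and Mrc1, they had an Adamts1 UMI in 2.74% of DPN cells (1.01% to 5.87%) and 0.621% of control cells (0.0157% to 3.41%) after thinning, at medians of 4272 UMIs in DPN and 4877 UMIs in the control before it. All 5 gates were above the macrophages of their own library, but in myelinating Schwann cells the intervals overlapped with those of the macrophages. The macrophages themselves held 25 Adamts1 UMIs (24.8 CPM) in DPN and 5 (5.69 CPM) in the control, a ratio of 4.36 (1.64 to 14.6).

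**Figure D2:**
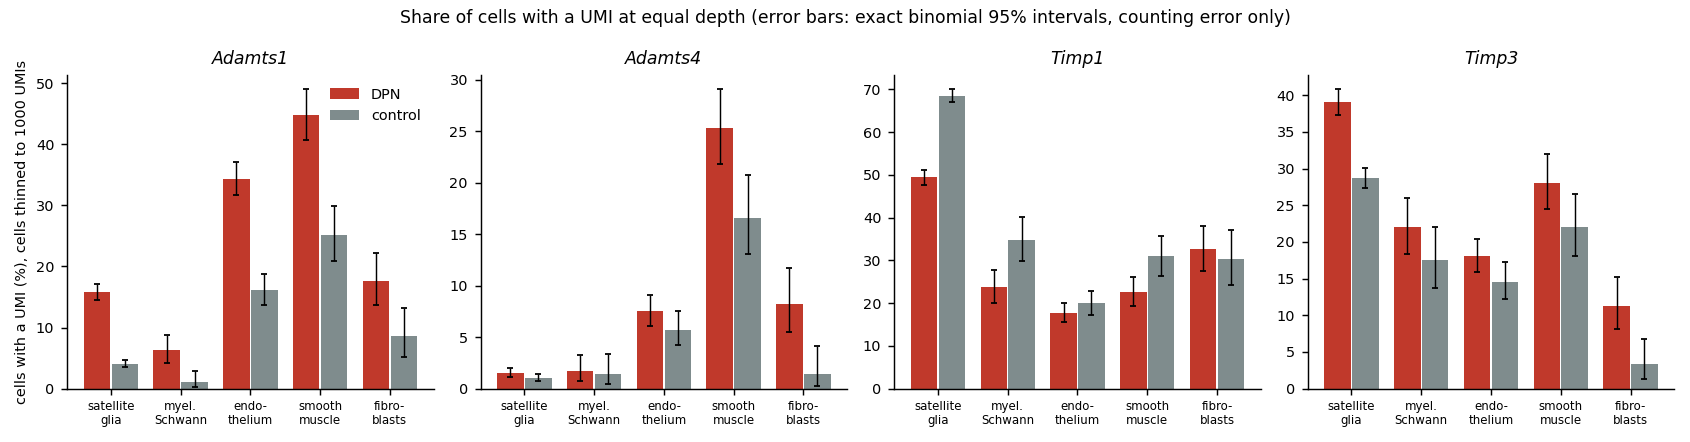
Share of cells (%) with at least 1 UMI of Adamts1, Adamts4, Timp1 or Timp3 after each cell was thinned to 1000 UMIs, by gate, DPN left and control right, with exact binomial 95% intervals for counting error. For Adamts1 the intervals of the conditions are apart in SGCs, myelinating Schwann cells, endothelium, smooth muscle and fibroblasts, and for Timp1 the order is reversed in SGCs (49.4% in DPN, 68.6% in the control).

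Adamts4, a main aggrecanase, was higher in DPN in 4 gates. The largest differences were in smooth muscle, with 389 CPM in DPN and 190 CPM in the control (ratio 2.05, 1.83 to 2.29), and in fibroblasts, with 86.9 CPM in DPN and 35.7 CPM in the control (ratio 2.43, 1.80 to 3.35). Endothelium had 115 CPM in DPN and 105 CPM in the control, and this ratio of 1.09 (1.01 to 1.18) stayed within the limit. It differed with depth, at 2.38 (1.18 to 5.33) in endothelial cells under 5000 UMIs and 1.76 (1.48 to 2.09) from 5000 to under 15000. In those of 15000 or more UMIs it was 0.962 (0.880 to 1.05). In this gate the pericyte markers, whose cells had the highest Adamts4 level, summed to 131 CPM in DPN and 213 CPM in the control, and their part in the ratio was not tested. In SGCs the gene was low, with 16.9 CPM in DPN and 10.1 CPM in the control (1.67, 1.49 to 1.88), and the ratio was 1.098 in cells under 10% mitochondrial UMIs. In myelinating Schwann cells it rested on 63 UMIs in DPN and 41 in the control (1.57, 1.05 to 2.39). It was 3.28 there in cells of exactly 1 gate and 0.563 in cells under 10% mitochondrial UMIs, so that its direction depended on the choice of cells. In rat RefSeq Adamts4 overlaps another gene, and reads given to the wrong gene of the pair cannot be told apart here.

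Adamts5, the other main aggrecanase, was highest in SGCs. It had 80.1 CPM in DPN SGCs and 40.1 CPM in control SGCs, a ratio of 2.0 (1.89 to 2.11) that lay between 1.76 and 2.10 over the 13 alternatives. Endothelium had little of it, 232 UMIs (17.0 CPM) in DPN and 73 (7.02 CPM) in the control, with a ratio of 2.42 (1.85 to 3.19). In myelinating Schwann cells it had 42.9 CPM in DPN and 27.5 CPM in the control (1.56, 1.13 to 2.17). Smooth muscle and fibroblasts held only 82 UMIs each over both libraries, with ratios of 1.87 (1.15 to 3.12) and 1.71 (1.04 to 2.94). All 5 intervals lay above 1.

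Adamts9, which cuts versican and also acts in secretion, had its highest levels in the vessels. Endothelium had 79.8 CPM in DPN and 52.1 CPM in the control, a ratio of 1.53 (1.38 to 1.70) close to the limit, which became 1.47 relative to the median of all genes. Smooth muscle had 50.8 CPM in DPN and 37.5 CPM in the control (1.35, 1.03 to 1.79). In SGCs the levels were 10.2 CPM in DPN and 6.95 CPM in the control (1.47, 1.27 to 1.70). Myelinating Schwann cells and fibroblasts held 45 and 53 UMIs over both libraries, and both intervals included 1.

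Summed over the 4 ADAMTS genes, SGCs had 295 CPM in DPN and 103 CPM in the control, a ratio of 2.88 (2.79 to 2.97). The sum had ratios of 2.59 in myelinating Schwann cells, 1.85 in endothelium, 2.23 in smooth muscle and 2.66 in fibroblasts. Adamts1 made up 63.7% of these UMIs in DPN SGCs and 44.3% in control SGCs, and Adamts5 27.1% in DPN and 39.1% in the control. The make-up therefore differed as well as the sum.

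Mmp2, the gelatinase of basement membranes, had its highest level in fibroblasts, 34.8 times that of the next gate in DPN and 56.8 times in the control. Fibroblasts had 474 CPM in DPN (447 to 503) and 511 CPM in the control (476 to 548), a ratio of 0.928 with an interval of 0.846 to 1.02. They held 61.1% of the Mmp2 UMIs of all cells kept in DPN and 51.2% in the control, and 2.33% of the UMIs of all genes in DPN and 1.33% in the control. In SGCs Mmp2 had 13.6 CPM in DPN and 9.0 CPM in the control, a ratio of 1.52 (1.33 to 1.72), but it was 0.854 in cells under 10% mitochondrial UMIs and 1.33 relative to the median of all genes. The other 3 gates had between 16 and 75 Mmp2 UMIs over both libraries, with intervals that all included 1.

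Mmp14, which activates Mmp2, was measured in all 5 gates and was past the limit in none. SGCs had 93.0 CPM in DPN and 91.9 CPM in the control, a ratio of 1.01 (0.968 to 1.06). The largest difference was in fibroblasts, with 121 CPM in DPN and 174 CPM in the control, a ratio of 0.695 (0.587 to 0.825) that became 0.624, past the limit, relative to the median of all genes. In myelinating Schwann cells the ratio was 0.778 (0.606 to 0.996), in endothelium 0.808 (0.647 to 1.01) and in smooth muscle 1.22 (0.887 to 1.69). These 3 directions turned after thinning, to 1.73 in myelinating Schwann cells, 1.26 in endothelium and 0.906 in smooth muscle. The ratio in endothelium was also 1.04 as a mean over cells, and that in myelinating Schwann cells was 0.263 in cells under 10% mitochondrial UMIs. In cells under 5000 UMIs the ratios were 1.19 (0.650 to 2.27) in myelinating Schwann cells and 1.70 (0.697 to 4.74) in endothelium. Fibroblasts were thus the gate with the highest Mmp2 and Mmp14 levels in each library, and neither gene was higher there in DPN.

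Timp1, the inducible inhibitor of most MMPs, was the member with the lowest ratio in SGCs, myelinating Schwann cells and smooth muscle. SGCs had 27544 UMIs or 816 CPM (807 to 826) in DPN and 83042 UMIs or 1428 CPM (1419 to 1438) in the control. The ratio was 0.571 (0.564 to 0.579), and 0.753% of the genes in this gate had a lower one. It lay between 0.502 and 0.725 over the 13 alternatives, and the upper end, in cells under 10% mitochondrial UMIs, was the only one that did not reach 1/1.5. Myelinating Schwann cells had 307 CPM in DPN and 611 CPM in the control, a ratio of 0.502 (0.459 to 0.550) that kept to the lower side of the limit in all 13 alternatives. In smooth muscle the levels were 386 CPM in DPN and 572 CPM in the control (0.675, 0.622 to 0.732), in endothelium 204 CPM in DPN and 286 CPM in the control (0.711, 0.675 to 0.749). Both missed the limit, and smooth muscle passed it in 5 of the 13 alternatives. Fibroblasts had 514 CPM in DPN and 493 CPM in the control, and this ratio of 1.04 (0.951 to 1.14) became 0.936 relative to the median of all genes.

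The lower level of Timp1 in DPN SGCs was also a lower share of cells with the transcript. After thinning, 49.4% of DPN SGCs (47.6% to 51.2%) and 68.6% of control SGCs (67.1% to 70.0%) had a Timp1 UMI (96.6% in DPN and 99.0% in the control without thinning). Macrophages had one in 8.22% of DPN and 7.45% of control cells. SGC transcripts were also found in the other gates. The SGC markers Fabp7 and Tyrp1 reached between 4.18% and 14.1% of their SGC level there. In myelinating Schwann cells they reached 7.15% in DPN and 14.1% in the control. These shares of the SGC level would give 58.4 CPM of Timp1 in DPN and 201 CPM in the control. Timp1 in the 4 gates other than SGCs was 3.04 to 10.1 times what the marker share of the SGC level would give. The same figure was 2.64 in DPN macrophages and 2.43 in control macrophages, close to the lowest value, that of control myelinating Schwann cells, and how much of the Timp1 there came with SGC transcripts was not tested.

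Timp3, the matrix-bound inhibitor, had ratios over 1 in all 5 gates, with every interval above 1. Fibroblasts had 141 CPM in DPN (127 to 157) and 59.5 CPM in the control (47.8 to 73.1), a ratio of 2.38 (1.88 to 3.03). These levels were 4.54 times in DPN and 2.77 times in the control what the SGC marker share of the SGC level would give. The same figure for Timp3 was 3.30 in DPN macrophages and 2.64 in control macrophages. How much of the fibroblast Timp3 came with SGC transcripts was not tested. Smooth muscle had 372 CPM in DPN and 238 CPM in the control, a ratio of 1.56 (1.41 to 1.74), which was 1.38 after thinning. SGCs, where the gene was highest, had 501 CPM in DPN and 340 CPM in the control, and their ratio of 1.476 (1.45 to 1.51) was just under the limit. Endothelium had 265 CPM in DPN and 182 CPM in the control (1.45, 1.37 to 1.54), and myelinating Schwann cells 320 CPM in DPN and 255 CPM in the control (1.255, 1.13 to 1.40). After thinning, 39.0% of DPN SGCs and 28.7% of control SGCs had a Timp3 UMI (95.9% in DPN and 94.1% in the control without thinning).

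Timp2, which both inhibits MMPs and helps Mmp14 to activate Mmp2, had the narrowest range of ratios. Its ratios were 0.824 (0.797 to 0.852) in SGCs, 0.932 in myelinating Schwann cells, 0.898 in endothelium, 1.03 in smooth muscle and 0.975 in fibroblasts. The highest levels were in fibroblasts, with 664 CPM in DPN and 681 CPM in the control, and in myelinating Schwann cells, with 630 CPM in DPN and 676 CPM in the control, and the intervals of these gates overlapped in each library. Timp4, the TIMP of most restricted expression, had 68.0 CPM in DPN SGCs and 74.3 CPM in control SGCs (0.916, 0.870 to 0.964), and the ratio was 0.522 in cells under 10% mitochondrial UMIs. Endothelium held only 46 Timp4 UMIs in DPN and 56 in the control, a ratio of 0.624 (0.413 to 0.939). These counts are low, and the ratio was 1.02 as a mean over cells and 1.65 after thinning, so no direction can be given.

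In rat RefSeq (GRCr8), Timp1, Timp3 and Timp4 lie within the spans of the synapsin genes Syn1, Syn3 and Syn2. The level of each host gene was at most 7.90 CPM in any gate and library, which is near that of Timp4 in endothelium and myelinating Schwann cells and far below the other TIMP levels given here. The sources used here do not say how the counting treated strand.

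The TIMP transcripts of a gate can also be read as a mixture, here as shares of UMIs that are not corrected for how well each transcript is captured. In SGCs Timp1 made up 53.2% of the 51786 TIMP UMIs in DPN and 70.6% of the 117627 in the control. Timp3 made up 32.7% in DPN SGCs and 16.8% in control SGCs, and the sum of the 4 genes was 1535 CPM in DPN and 2023 CPM in the control, a ratio of 0.759 (0.751 to 0.766). In endothelium the leading TIMP differed between the libraries. Timp3 led in DPN with 47.8% (Timp1 36.8%), whereas Timp1 led in the control with 50.7% (Timp3 32.3%). The sum there had a ratio of 0.979 (0.947 to 1.01). In smooth muscle Timp3 made up 37.8% in DPN and 23.0% in the control, and in myelinating Schwann cells 25.3% in DPN and 16.5% in the control. In fibroblasts Timp2 led in both conditions, with 48.6% in DPN and 53.6% in the control, and Timp3 made up 10.3% in DPN and 4.68% in the control. A higher share of Timp3 in DPN was thus measured in all 5 gates, as was a lower share of Timp1, but in fibroblasts the Timp1 shares of 37.6% in DPN (36.0% to 39.3%) and 38.8% in the control (36.6% to 41.0%) had overlapping intervals.

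**Figure D3:**
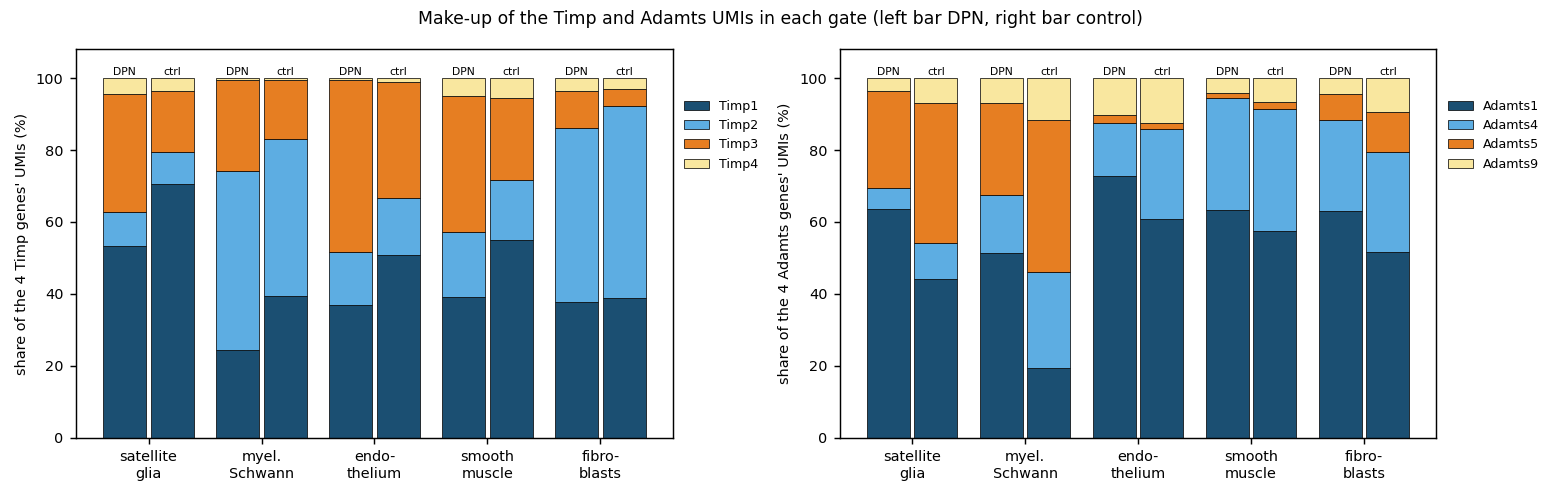
Make-up of the UMIs of the 4 TIMP genes (left panel) and of the 4 ADAMTS genes (right panel) in each gate, in % of the family's UMIs, with DPN as the left and control as the right bar of each pair. The Timp3 segment is larger in DPN in every gate, and the Adamts1 segment is larger in DPN in every gate (63.7% in DPN and 44.3% in the control in SGCs).

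Each member had its own place among the gates, and the place of the highest level was the same in both libraries for all 10. Smooth muscle was highest for Adamts1 and Adamts4, endothelium for Adamts9, fibroblasts for Mmp2, Mmp14 and Timp2, and SGCs for Adamts5, Timp1, Timp3 and Timp4. For Adamts1 and Adamts4 the order of all 5 gates was the same in the libraries and no neighbours in it had overlapping intervals. For Timp1 the order differed. Fibroblasts came next after SGCs in DPN, but after smooth muscle and only before endothelium in the control. Myelinating Schwann cells came before smooth muscle in the control and after it in DPN, but their intervals overlapped in the control. Among neighbours that could not be told apart were endothelium and smooth muscle for Adamts5, and smooth muscle and fibroblasts for Timp4, in both libraries. The highest gate was 9.17 times the lowest for Adamts1 in DPN and 25.6 times in the control.

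**Figure D4:**
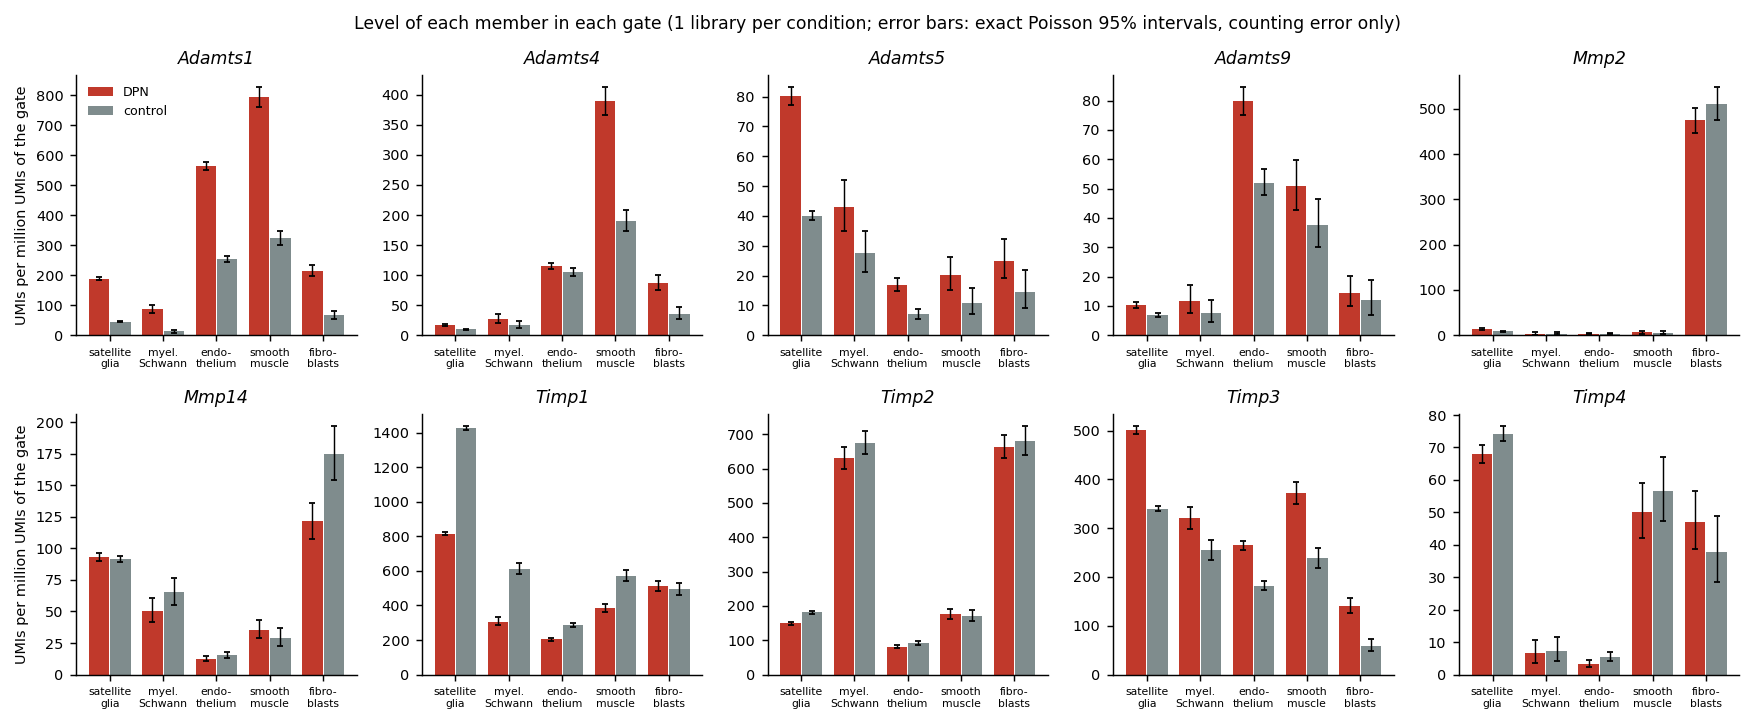
Level of each member in CPM (share of the UMIs of the gate), in 5 gates, DPN (red, left) and control (grey, right), with exact Poisson 95% intervals for counting error. Each panel has its own axis from 0. Among the 5 gates, Mmp2 stands out in fibroblasts, and Timp1 in SGCs, where it was 816 CPM in DPN and 1428 CPM in the control.

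Against the whole distribution of genes, Adamts1 stood in the upper tail in every gate, with at least 94.9% of genes below it. Timp1 stood in the lower tail in 4 gates, with between 0.391% and 7.33% of genes below it, and in the middle in fibroblasts (42.6%). Timp3 had 73.1% of genes below it in SGCs and 94.0% in fibroblasts. Mmp14 had 37.0% below it in SGCs and 5.73% in fibroblasts.

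**Figure D5:**
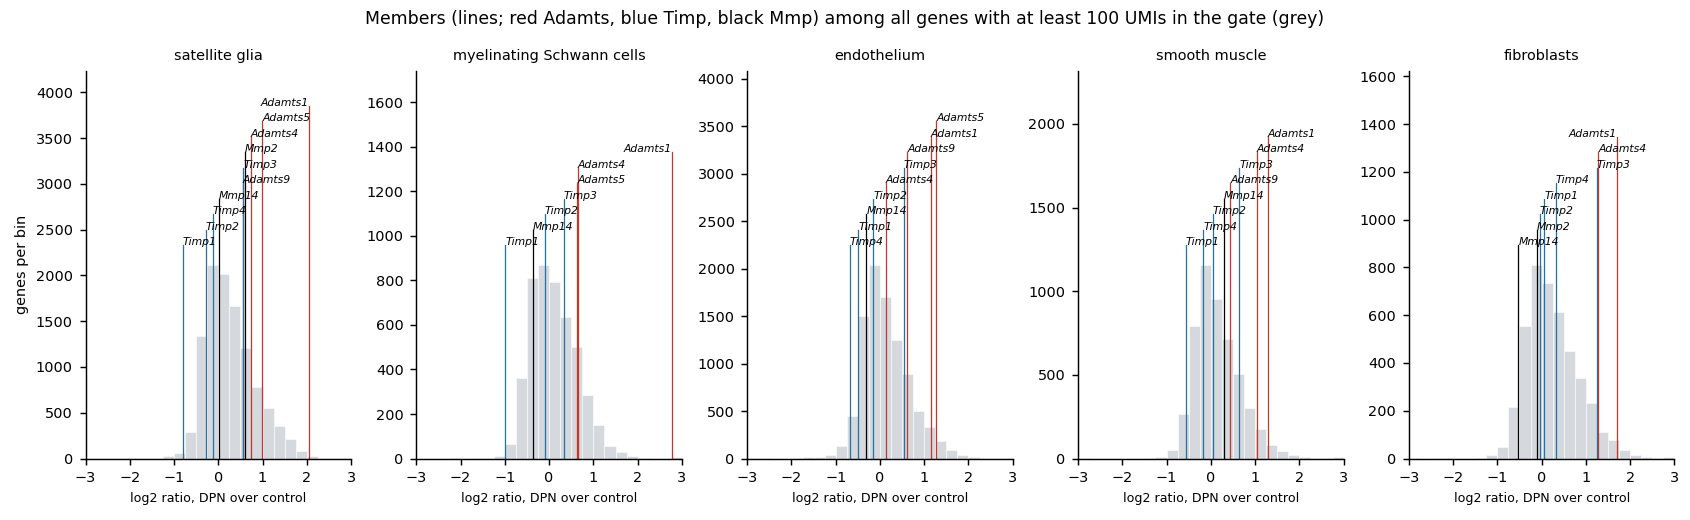
Distribution of log2 ratios, DPN over control, over all genes with at least 100 UMIs in each gate (grey bars, genes per bin of 0.25, values beyond 3 in the last bins), with the members as lines (red ADAMTS, blue TIMP, black MMP). Adamts1 lies right of most genes in each gate, and Timp1 left of most genes except in fibroblasts.

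Some of these genes respond quickly to cell stress and growth signals, as immediate early genes do, so the values of such genes are set beside them. In cells thinned to 1000 UMIs, the sum of Fos, Fosb, Jun, Junb and Egr1 had a median of 14 UMIs in DPN SGCs and 6 in control SGCs, and it was higher in DPN in the other gates as well (18 in DPN and 12 in control endothelium, 20 in DPN and 15 in control smooth muscle, 18 in DPN and 11 in control fibroblasts, 11 in DPN and 7 in control myelinating Schwann cells). Within SGCs of like levels of these 5 genes (0 to 4, 5 to 9, 10 to 19, and 20 or more UMIs), a split chosen after seeing the data, the ratio of Adamts1 was 5.62, 3.12, 3.95 and 2.11. Timp1 had 0.570, 0.625, 0.618 and 0.671 and Timp3 1.63, 1.62, 1.51 and 1.60 in the same classes. The Adamts1 level itself was higher in classes with more of these UMIs, 129 CPM in the first and 213 CPM in the last class of DPN SGCs, and 23.0 CPM in the first and 100.8 CPM in the last class of control SGCs. In the same 4 classes Adamts1 had ratios of 3.85, 2.54, 1.86 and 2.01 in endothelium and 3.43, 2.55, 2.75 and 1.97 in smooth muscle, of which the first in smooth muscle rested on 8 UMIs. In fibroblasts the first class held 1 Adamts1 UMI, and the others had 1.61 (0.3004 to 8.66), 1.39 (0.661 to 3.13) and 2.59 (0.942 to 9.92), so that every interval included 1. The ratio in myelinating Schwann cells was 1.53 (0.383 to 8.81) in the class of 20 or more, and the other classes held at most 1 control UMI each. Timp1 in the highest class had 0.860 (0.494 to 1.53) in myelinating Schwann cells, 0.853 (0.588 to 1.26) in endothelium, 0.883 (0.634 to 1.24) in smooth muscle and 3.53 (1.31 to 13.4) in fibroblasts. Only in SGCs did its interval in that class lie below 1. Timp3 had ratios of 0.996, 0.829, 2.21 and 0.902 in myelinating Schwann cells and 1.47, 0.955, 1.35 and 1.48 in smooth muscle over the 4 classes.

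Depth was examined in the same way. In SGCs under 5000 UMIs, of 5000 to under 15000, and of 15000 or more, Adamts1 had ratios of 4.35, 4.196 and 4.31. Timp1 had 0.928 (0.799 to 1.079) in the shallowest class, which held 160 DPN and 112 control cells, and 0.569 and 0.587 in the deeper ones. In endothelium its direction differed between depth classes, with 1.26 (1.01 to 1.57) in the shallowest, 0.831 in the middle and 0.645 (0.605 to 0.687) in the deepest. In fibroblasts it had 1.01, 1.12 and 0.610 (0.505 to 0.738), the last in 21 DPN and 7 control cells. All 3 depth classes of myelinating Schwann cells and of smooth muscle had Timp1 ratios under 1.

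Markers of other cells differed between the libraries within the gates. The 5 neuron markers summed to 172 CPM in DPN SGCs and 104 CPM in control SGCs and were higher in DPN in all 5 gates. The 4 other fibroblast markers with a symbol in the counts summed to 118 CPM in DPN endothelium and 40.5 CPM in control endothelium, and the neutrophil markers S100a8 and S100a9 to 2.47 CPM in DPN smooth muscle and 229 CPM in control smooth muscle. In smooth muscle, 27.9% of DPN and 17.7% of control cells were taken on 1 or 2 Myh11 UMIs. With at least 3 such UMIs the ratio of Adamts1 was 2.71 and that of Adamts4 2.39. The part of these differences in the results was not tested.

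Cells outside the gates were examined with markers and thresholds set after the data had been seen. Pericytes (Rgs5, Kcnj8, Abcc9), with 228 DPN and 97 control cells, had 792 CPM of Adamts1 in DPN and 280 CPM in the control, a ratio of 2.82 (2.34 to 3.43), with Timp1 at 0.621 (0.520 to 0.741) and Timp3 at 1.75 (1.41 to 2.19). They held the highest Adamts4 level of all places examined, 779 CPM in DPN and 462 CPM in the control. Other Schwann cells (Scn7a, Cdh19), with 2199 DPN and 508 control cells, had 201 CPM of Adamts1 in DPN and 83.6 CPM in the control (2.40, 2.07 to 2.79), 903 CPM of Timp1 in DPN and 1444 CPM in the control (0.625, 0.601 to 0.650), and a Timp3 ratio of 1.73 (1.58 to 1.89). The Timp1 level of other Schwann cells was above that of SGCs in DPN (816 CPM) and near it in the control (1428 CPM). Neurons (Avil, Gap43, Nefl, Nefm, Stmn2) held mainly Timp2, with 267 CPM in DPN and 167 CPM in the control (1.60, 1.52 to 1.68). Their Adamts1 level was 3.47 CPM in DPN and 2.31 CPM in the control. In macrophages, too, Timp2 was the member with the highest level, at 461 CPM in DPN and 395 CPM in the control. The order of the conditions for Adamts1, Timp1 and Timp3 in pericytes and in other Schwann cells was thus that of the gated SGCs. Macrophages and neurons had the same order. Timp1 had ratios of 0.654 (0.492 to 0.867) in macrophages and 0.649 (0.561 to 0.752) in neurons. Timp3 had 1.94 (1.254 to 3.07) in macrophages and 1.71 (1.27 to 2.32) in neurons. Neuron levels of Timp3 were low, 7.67 CPM in DPN and 4.48 CPM in the control. The neuron ratio of Adamts1 was 1.503, with an interval that included 1 (0.982 to 2.34). The part of transcripts from other cells in these values was not tested.

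The rest of the pathway was described with lists of further proteases, regulators and substrates. Of 19 other MMPs, 4 had at least 100 UMIs in SGCs, of which 0 were higher and Mmp9, the other gelatinase, was lower (0.830 CPM in DPN, 1.77 CPM in the control, ratio 0.468, 0.297 to 0.717). Mmp9 is also a gene of neutrophils, and their markers S100a8 and S100a9 summed to 1.22 CPM in DPN SGCs and 8.75 CPM in control SGCs. Their part in the Mmp9 value was not tested. Mmp15, a membrane-type MMP, was lower in endothelium, with 15.7 CPM in DPN and 27.5 CPM in the control (0.569, 0.474 to 0.681). Of 20 other ADAMTS and ADAMTS-like genes, 8 were measured in SGCs, with Adamts20 higher and Adamts14, which processes procollagen, lower (0.646, 0.419 to 0.974). The 8 genes had a median log2 ratio of 0.20, beside 0.19 for all genes in SGCs.

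The ADAMs, membrane proteins of which some, but not all, are proteases that shed cell surface proteins and some are inhibited by Timp3, were a list with many members above the limit. In SGCs 6 of 8 were higher in DPN (Adam9, Adam10, Adam11, Adam12, Adam19 and Adam23) and 0 lower, with a median log2 ratio of 1.02, against 25.7% of all genes higher and 2.29% lower and a median of 0.19 in this gate. Adam12 had 3.20 CPM in DPN and 0.912 CPM in the control, a ratio of 3.51 (2.50 to 4.97). Adam10, the main shedding protease of this list, had 51.5 CPM in DPN smooth muscle and 16.4 CPM in control smooth muscle (3.14, 2.19 to 4.62), and 146 CPM in DPN and 84.1 CPM in control myelinating Schwann cells (1.73, 1.45 to 2.08). Adam9 had a ratio of 2.27 (1.66 to 3.14) in endothelium. Of the 2 ADAMs measured in fibroblasts, 0 were past the limit.

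Among regulators, Thbs1, thrombospondin 1, had 9.90 CPM in DPN SGCs and 2.75 CPM in control SGCs (3.597, 2.97 to 4.37), and 170 CPM in DPN and 36.4 CPM in control fibroblasts (4.66, 3.51 to 6.30). Plau, the plasminogen activator urokinase, had 54.9 CPM in DPN and 13.2 CPM in control fibroblasts (4.15, 2.58 to 7.01), and ratios of 2.25 in endothelium and 2.40 in smooth muscle. Its receptor Plaur was lower in SGCs (0.623, 0.436 to 0.876). In fibroblasts 4 of 12 regulators were higher in DPN and 0 lower, against 26.2% and 4.1% of all genes, which is close to the background. In SGCs 1 of 11 regulators was higher and 1 lower, against 25.7% and 2.29% of all genes.

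The listed proteoglycans and other substrates were mostly within the limit, except in myelinating Schwann cells. There 2 of 5 were within it, 1 was higher and 2 were lower, against 18.5% and 5.61% of all genes. Vcan, versican, had 405 CPM in DPN fibroblasts and 78.7 CPM in control fibroblasts, a ratio of 5.15 (4.25 to 6.29), and ranked 9 of 4273 genes there. Bcan, brevican, had 31.3 CPM in DPN SGCs and 9.55 CPM in control SGCs (3.28, 2.96 to 3.64). Both are substrates that Adamts1 or Adamts4 can cut, and each was the highest of its list in that gate. Bgn, biglycan, was lower in endothelium, with 45.4 CPM in DPN and 112 CPM in the control (0.404, 0.366 to 0.446), as was the matrix glycoprotein Tnc (0.523, 0.399 to 0.682). In the same gate the pericyte markers summed to 131 CPM in DPN and 213 CPM in the control, and smooth muscle markers other than Myh11 to 90.6 CPM in DPN and 164 CPM in the control. Their part in the values of Bgn and Tnc was not tested. Dcn, decorin, had a ratio of 3.94 (3.44 to 4.52) in endothelium and 2.08 in myelinating Schwann cells, and it is itself one of the fibroblast markers whose sum in endothelium is given above. Fibulin genes were lower in myelinating Schwann cells (Fbln2 0.496, Fbln5 0.622) and in fibroblasts (Fbln1 0.508, 0.362 to 0.709). In SGCs 1 of 13 substrates was higher and 0 were lower, against 25.7% and 2.29% of all genes, and their median log2 ratio was −0.14.

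Over the 10 sums of 5 gates and 2 libraries, the profile of log2(CPM + 1) of Adamts1 was close to those of Adamts9 (r = 0.84) and Adamts4 (r = 0.83) and unlike that of Adamts5 (r = −0.32). Mmp2 and Mmp14 had r = 0.74, and Timp1 and Timp3 r = 0.18. Among 7655 genes, the profiles most like a member were Fam122a for Adamts1 (r = 0.97), Tspan2 for Adamts4 (r = 0.98), Soga3 for Adamts5 (r = 0.96), Baz1a for Adamts9 (r = 0.99), F3 for Mmp2 (r = 0.99), Igsf3 for Mmp14 (r = 0.99), Dynlt1 for Timp1 (r = 0.97), P3h4 for Timp2 (r = 0.98), Nfkbie for Timp3 (r = 0.98) and Rnd3 for Timp4 (r = 0.96). The 10 sums share 2 libraries and differ in depth and cell type, so these values are a description only.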

How the data were processed

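The deposited values were UMI counts per gene and barcode, 1 matrix per library. Per the labels and methods, the authors aligned and counted the reads with Cell Ranger 3.1.0 and STAR. The STAR version, the genome build and the treatment of strand are not stated in the material used here, and whether reads of the deeper library were thinned by the authors is unclear, so depths are those of the matrices. Cells with at least 1000 UMIs and under 20% Mt- UMIs were kept, and no doublet caller was run. Gates required, per 10000 UMIs, 12 of Fabp7 and Tyrp1 (SGCs), 5 of Prx, Mag and Cldn19 (myelinating Schwann cells), 10 of Cldn5, Flt1 and Cdh5 (endothelium), 2 of Myh11 (smooth muscle) or 5 of Lum (fibroblasts). Cells passing more than 1 gate were kept in each and left out in an alternative. Raw UMIs were summed per gate and library and divided by the gate's total. Ratios had exact conditional binomial, levels exact Poisson and shares exact binomial (Clopper-Pearson) 95% intervals. Only the ratio intervals were tested on simulated counts. These were Poisson counts, so the simulation cannot tell how the intervals fare with the spread between real cells. Genes under 100 UMIs over both libraries were not called. Macrophages (20 per 10000), pericytes (20), other Schwann cells (10) and neurons (50) were taken from cells in none of the 5 gates, and these classes, the depth and immediate early classes, the alternative without shared barcodes and the motif TGAGTAA were chosen after seeing the data.

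The members and gene lists were chosen with earlier results of these data known. The 106 genes of 7 lists included 6 without a symbol in the counts. Of the lists, the 3 highest and 3 lowest genes past 1.5-fold per gate were named, and genes outside this rule (Adamts20 and the other ADAMs) were named after their values were seen. Results of some listed genes are not reported here. Alternatives covered the gates, cell filters, scaling, weighting, depth, the count minimum and the fold. Python 3.11.15, numpy 2.4.6, scipy 1.17.1, pandas 2.3.3 and matplotlib 3.10.9 were used.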

Additional observations from a re-analysis of the deposited data

Results flagged for a closer look

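For 5 members the ratio of DPN over control lay above 1 in at least 1 gate and below 1 in another, and the difference between the gates was not tested, since each gate has 1 library per condition. Mmp2 had 1.52 in SGCs, which was 0.854 in cells under 10% mitochondrial UMIs, and 0.928 in fibroblasts, with an interval that included 1 (0.846 to 1.02). Mmp14 had 1.22 in smooth muscle, with an interval that included 1 (0.887 to 1.69), and 0.695 in fibroblasts. Timp1 had 1.04 in fibroblasts, with an interval that included 1, and 0.502 in myelinating Schwann cells. Timp2 had 1.03 in smooth muscle, also with an interval that included 1, and 0.824 in SGCs. Timp4 had 1.246 in fibroblasts, where the interval included 1 (0.899 to 1.75), and 0.624 in endothelium, where it had 46 UMIs in DPN and 56 in the control and turned to 1.02 as a mean over cells and 1.65 after thinning, so that no direction can be given there.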

How the results depend on the processing

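Over 17 settings, 137 of 170 counts of members past the limit stayed within 1.5 times their main value and 33 did not. Of members lower in DPN in endothelium (main count 1, Timp4), there were 0 with cells of exactly 1 gate, doubled thresholds, a 10% mitochondrial limit, genes named after the mitochondrial GenBank record added to the 20% limit, cells within 4 MADs, the deepest 5% left out, the mean over cells, thinning, a minimum of 300 UMIs or a limit of 2-fold, and 2 at a looser fold limit of 5/4. Of members lower in smooth muscle (main count 0), there was 1 with doubled thresholds, at least 3 marker UMIs, the 10% limit, those added genes, median-ratio scaling or the looser limit. Of members higher in myelinating Schwann cells (main count 3), there was 1 with doubled thresholds, with those added genes or at 2-fold, and 0 with the 10% limit, thinning or 300 UMIs. Members lower there (main count 1) numbered 2 at the looser limit and 0 at 2-fold. In SGCs the higher members (main count 4) numbered 2 with median-ratio scaling or thinning and 1 at 2-fold, and the lower ones (main count 1) 0 at 2-fold. In endothelium the higher members (main count 3) numbered 1 after thinning. In fibroblasts the higher ones (main count 3) numbered 0 after thinning, and the lower ones (main count 0) 1 with median-ratio scaling or the looser limit. Thinning leaves fewer UMIs, so fewer members reached the minimum of 100, and the other causes were not tested. Ratios past the limit turned direction for Mmp2 in SGCs (0.854) and Adamts4 in myelinating Schwann cells (0.563) under the 10% limit, and for Timp4 in endothelium as a mean over cells (1.02), after thinning (1.65) and in cells of 5000 to under 15000 UMIs (1.27). They also turned for Adamts4 (0.826) and Adamts5 (0.692) in myelinating Schwann cells of 15000 or more UMIs, Adamts9 in endothelium with 10 to under 20 immediate early UMIs (0.813) and Timp3 in smooth muscle with 5 to under 10 (0.955). Depth and immediate early classes were read only where they held at least 20 UMIs of the gene, and 12 more ratios past the limit turned in classes with fewer. Leaving out shared barcodes, taking Mt- UMIs from the totals, and minimums of 2000 UMIs per cell or 20 per gene moved no count by over 1.5 times. No paired analysis was possible because there is 1 pool per condition.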
